A study of Mus musculus with 4 samples.

Results

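In mouse mammary epithelial cells treated with TGFβ for 2 h, 230 stretches of the genome held 5 or more open chromatin regions packed close together and away from gene starts. These dense clusters contained 1306 of the 27584 distal regions (4.73%) of the TGFβ list. They were chosen by the positions in that list alone. Intervals under 150 bp were dropped, and neighbours with a gap under 1000 bp were merged into 1 region, which left 38532 regions. Regions within 1000 bp of an annotated transcription start site (TSS) were set aside, and the remaining distal regions were joined wherever the gap between them was at most 12 kb and 500 bp. A group with 5 or more regions was called a dense cluster, so the density of TGFβ-list regions in a cluster is the selection itself and not a result. The values that follow concern what the selection did not use: whether these regions were also called in the other lists, which genes lay beside them and what their sequence held.

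The cells were NMuMG, an established epithelial line from normal murine mammary gland. Chromatin accessibility was measured by ATAC-seq, in which the Tn5 transposase cuts and tags DNA that is not wrapped tightly in nucleosomes. Of the 4 samples, 1 received vehicle (4 mM HCl with 1 mg/ml BSA) and 1 received TGFβ1 at 5 ng/ml for 2 h, both in complete medium with 10% serum and insulin. The other 2 were starved of serum and of insulin over 6 h, after which vehicle or the same dose of TGFβ1 was given for 10 min. For the sample given TGFβ1 for 10 min a further label gives 2 h, and the title was followed. The 3 peak lists analysed here were a vehicle list and a TGFβ list from complete medium and 1 list that the labels give to both 10 min samples, so vehicle and TGFβ could not be compared at 10 min. A list gives a region as called or not called, without read counts, and not called means only not called in the lists as analysed here. Sequencing totals for each library come with the study but were not used as data. In complete medium the vehicle library had the larger total and the shorter list, and how depth bears on list length was not tested. No condition had replicate lists, and no test between conditions was possible. Percentages carry 95% Wilson intervals that cover counting only, and regions of 1 cluster are neighbours rather than independent draws.

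Distal open regions are mostly candidate enhancers, stretches of DNA that bind transcription factors and act on promoters that can lie far away. Several of them close together near 1 gene form an enhancer cluster, an arrangement known from genes that are strongly expressed or that set cell identity. TGFβ binds a pair of kinase receptors that phosphorylate SMAD2 and SMAD3. With SMAD4 these enter the nucleus and bind short SMAD elements, usually beside other factors such as AP-1, the dimer of FOS and JUN proteins. In mammary epithelium TGFβ is known for stopping growth and for driving epithelial-mesenchymal transition (EMT), in which junctions are lost and matrix, integrins and actin fibres are remodelled.

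The labelled cell type was checked at gene starts. A region within 1000 bp of a TSS was present in the TGFβ and vehicle lists for 4 of 8 epithelial marker genes (Krt8, Krt18, Krt19 and Grhl2) and in the 10 min list for these and Cdh1. Epcam, Cldn7 and Esrp1 had no such region in any list as analysed here. None of the 4 basal or myoepithelial, 5 immune, 4 endothelial and 3 adipocyte markers had one in any list.

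The sequences of 2 clusters show how a motif can recur along a cluster. They were selected after the values were seen, as the clusters with the most regions among those in which every region held a match, within 200 bp of its centre, to the AP-1 site TGACTCA or to a SMAD element (CAGACA or GTCTAGAC) on either strand. Only 2 of the 230 clusters held an AP-1 match in every region. The larger of them ran over 47.1 kb inside Apbb2, which codes for an adaptor that binds the amyloid precursor protein. The match nearest the centre of each of its 6 regions is given with 20 bases on each side, on the plus strand of mm9 (NCBIM37), with the match in capitals.
Apbb2 region 1, chr5:66933903-66933949: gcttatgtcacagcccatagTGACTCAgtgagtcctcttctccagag
Apbb2 region 2, chr5:66941751-66941797: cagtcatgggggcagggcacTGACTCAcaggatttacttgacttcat
Apbb2 region 3, chr5:66950880-66950926: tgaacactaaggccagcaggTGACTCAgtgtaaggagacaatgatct
Apbb2 region 4, chr5:66962130-66962176: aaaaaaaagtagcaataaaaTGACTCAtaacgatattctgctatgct
Apbb2 region 5, chr5:66970502-66970548: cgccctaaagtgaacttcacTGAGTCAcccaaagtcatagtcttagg
Apbb2 region 6, chr5:66980288-66980334: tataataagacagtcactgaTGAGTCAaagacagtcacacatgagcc
Only region 2 was called in the vehicle list, and regions 1, 2 and 3 were called in the 10 min list. Regions 4, 5 and 6 were called in the TGFβ list alone. The cluster was picked for an AP-1 word in every region, so its presence in regions called in 1 or all 3 lists was set by that choice. Over all distal regions 41.2% held an AP-1 match. Only the 1 match named is in capitals, and any other word searched for is left in lower case in these windows.

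Every region of a 7-region cluster between Erg and Ets2, both genes of ETS factors, held a SMAD word. The nearest of these starts was that of Ets2, 16.0 kb away. The match nearest the centre is shown in the same way, and TGTCTG is CAGACA read from the other strand. Capitals mark that SMAD match only. The windows of regions 1 and 6 also hold the AP-1 word, which overlaps the SMAD word in region 1 and is in lower case in region 6.
Ets2 cluster region 1, chr16:95864665-95864710: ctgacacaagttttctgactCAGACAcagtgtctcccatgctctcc
Ets2 cluster region 2, chr16:95869631-95869676: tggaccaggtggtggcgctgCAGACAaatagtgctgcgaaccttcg
Ets2 cluster region 3, chr16:95880426-95880471: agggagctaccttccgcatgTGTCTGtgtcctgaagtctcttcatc
Ets2 cluster region 4, chr16:95889595-95889640: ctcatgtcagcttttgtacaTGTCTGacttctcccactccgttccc
Ets2 cluster region 5, chr16:95896325-95896370: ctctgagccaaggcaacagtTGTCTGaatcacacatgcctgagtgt
Ets2 cluster region 6, chr16:95904030-95904075: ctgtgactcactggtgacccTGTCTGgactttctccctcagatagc
Ets2 cluster region 7, chr16:95907395-95907440: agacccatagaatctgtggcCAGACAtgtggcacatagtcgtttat
Regions 1 and 2 were called in the TGFβ list alone, and regions 3 to 7 were called in both other lists. Here too the word lay in every region by the choice of the cluster, whichever lists called the region. Over all distal regions 40.2% held a SMAD match.

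The clusters were long, and called distal regions made up a small part of their span. The span from the first to the last region ran from 14.1 to 84.9 kb with a median of 29.9 kb. These regions covered 1.30 to 8.0 kb of a cluster, at the median 8.31% of its span, with regions at gene starts not counted. The 230 spans summed to 7.15 Mb, or 0.271% of the genome. Clusters of 5 regions numbered 129 and clusters of 6 regions 70. There were 15 with 7 regions, 10 with 8, 5 with 9 and 1 with 11. Just below the threshold lay 371 groups of 4 regions, with a median span of 20.6 kb against 26.2 kb for groups of 5. In the groups of 4, 42.7% of regions were called in the vehicle list and 55.5% in the 10 min list, against 41.7% and 58.6% in the groups of 5.

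The number of clusters followed the length of the list. The same rule gave 18 dense clusters with 94 regions in the vehicle list (0.868% of its 10833 distal regions) and 68 clusters with 374 regions in the 10 min list (2.27% of 16459). The vehicle list held 19648 regions after merging and the 10 min list 26732. When all 3 lists were cut to their 19648 highest-scoring regions, the TGFβ list gave 21 clusters, the vehicle list 18 and the 10 min list 23. The larger number in the TGFβ list was therefore not seen at equal length, and list length and condition cannot be told apart here.

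**Figure D1:**
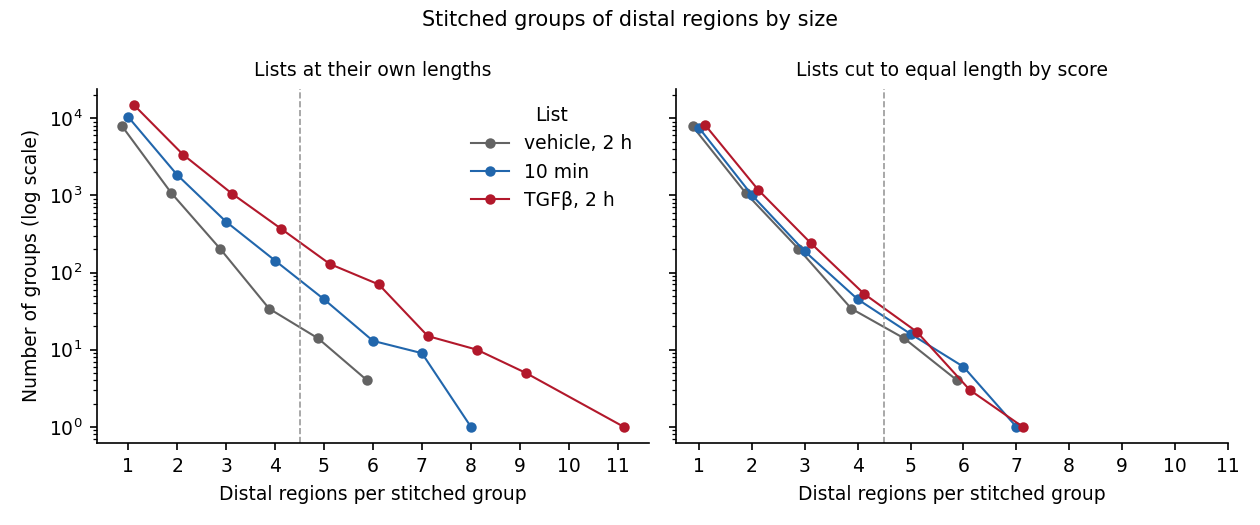
Number of stitched groups of distal regions (vertical axis, log scale) by the number of regions in a group (horizontal axis) for the vehicle (grey), 10 min (blue) and TGFβ (red) lists, with the threshold of 5 regions as a dashed line. At their own lengths (left) the TGFβ list had 230 groups past the threshold against 18 and 68, and cut to equal length (right) the counts were 21, 18 and 23.

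Some of the clustered regions were already called without 2 h of TGFβ. Of the 1306 clustered regions, 564 (43.2%, 40.5 to 45.9) were called in the vehicle list, against a background of 35.4% over all distal TGFβ regions and 35.0% (34.4 to 35.6) over those outside clusters. In the 10 min list 780 (59.7%, 57.0 to 62.4) were called, against 48.3% over all distal regions and 47.7% outside. Both lists held 506 clustered regions (38.7%), the vehicle list alone 58 (4.44%) and the 10 min list alone 274 (21.0%). The remaining 468 (35.8%, 33.3 to 38.5) were called in neither, against 46.2% over all distal regions and 46.7% outside clusters. Clustered regions were thus called in the other lists somewhat more often than distal regions outside clusters. Those outside include groups of 2 to 4 regions, and in groups of 4 the shares were 42.7% and 55.5%, near those of clusters. By length, 38.4% of the clustered sequence lay inside a vehicle region and 58.4% inside a 10 min region, against 32.8% and 48.0% outside.

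The share called elsewhere was lowest for single regions and highest for groups of 7 or more, but did not rise at each step between. In the vehicle list it was 32.2% for regions that stood alone, 37.0% for pairs, 40.2% for groups of 3, 42.7% for groups of 4, 41.7% for groups of 5, 42.9% for groups of 6 and 47.7% for groups of 7 or more. In the 10 min list the same groups had 44.8%, 50.1%, 52.7%, 55.5%, 58.6%, 57.4% and 66.8%. The share called in neither went from 49.8% for single regions to 31.1% for groups of 7 or more. Outermost and inner regions had similar shares. Of the outermost regions 42.8% (38.4 to 47.4) were called in the vehicle list and of the inner ones 43.4% (40.1 to 46.7).

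**Figure D2:**
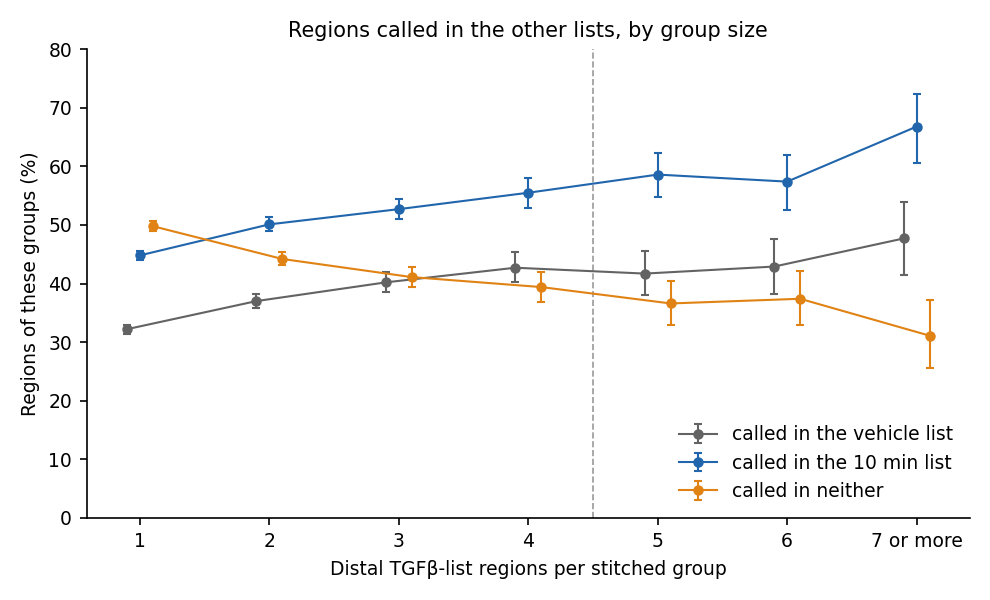
Percentage of distal TGFβ-list regions called in the vehicle list (grey), the 10 min list (blue) or neither (orange) by the number of regions in their stitched group, with 95% Wilson intervals as bars and the cluster threshold as a dashed line. The vehicle share went from 32.2% for single regions to 47.7% for groups of 7 or more, and the 10 min share from 44.8% to 66.8%.

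Peak score and width moved with this difference. The score of a peak is its scaled irreproducible discovery rate (IDR), capped at 1000, and 39.6% of clustered regions were at the cap against 31.5% outside. Among regions at the cap, 72.9% (68.9 to 76.6) of the clustered and 72.3% (71.3 to 73.2) of the other regions were called in the vehicle list. Below the cap the shares were 23.7% (20.9 to 26.8) and 17.8% (17.3 to 18.4). The median width was 375 bp in clusters and 327 bp outside. Among regions wider than 329 bp, the median of all distal regions, 59.1% in clusters and 52.9% outside were called in the vehicle list, and among narrower ones 20.2% and 17.4%. With the TGFβ list cut to its 19648 highest-scoring regions before clusters were built, 63.6% (54.3 to 72.0) of 110 clustered regions and 65.0% of the others were called in the vehicle list, so the direction turned. Clusters thus held more regions at the cap, and below the cap their vehicle share was also the higher one. In the 10 min list the shares at the cap were 81.4% in clusters and 79.5% outside. Below the cap they were 45.5% (42.1 to 49.0) and 33.1% (32.4 to 33.8). Among wider regions the 10 min shares were 72.5% and 64.0%, and among narrower ones 41.2% and 31.8%.

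Counted cluster by cluster, most clusters were mixtures. In 209 of the 230 clusters (90.9%) at least 1 region was called in the TGFβ list alone. In 214 at least 1 region was called in the vehicle list. Over all distal regions 46.2% were called in the TGFβ list alone and 35.4% in the vehicle list, against 35.8% and 43.2% of clustered regions. At such shares most groups of several regions would hold at least 1 of each kind, so these counts add little to the region shares. Whether mixtures were more frequent than these shares alone would give was not tested. The median cluster had 40% of its regions in the vehicle list and 60% in the 10 min list. No region was in the vehicle list in 16 clusters (6.96%, 4.33 to 11), and every region was in it in 2. No region was in the 10 min list in 2 clusters, and every region was in it in 13. More regions were called in the 10 min than in the vehicle list in 145 clusters, as many in 61 and fewer in 24. The vehicle list was the shorter of the pair, so this order follows the list lengths as well. The most frequent combination, in 34 clusters, was 2 regions in the vehicle and 3 in the 10 min list.

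**Figure D3:**
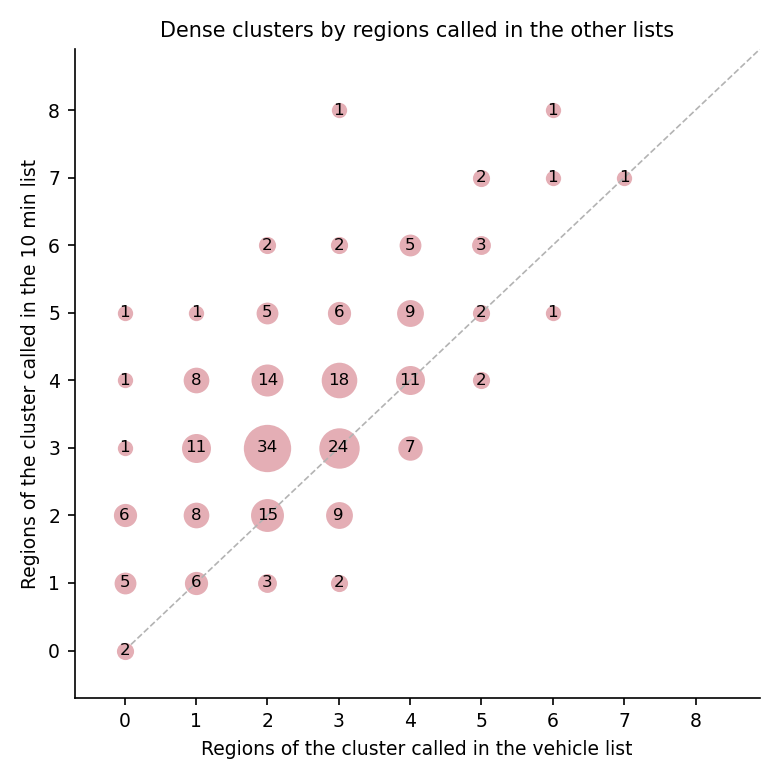
Dense clusters by the number of their regions called in the vehicle list (horizontal axis) and in the 10 min list (vertical axis), with the number of clusters printed in each circle and its area growing with that number. The dashed line marks equal numbers, with 145 clusters above it, 61 on it and 24 below it.

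The cluster with the most regions lay over A730020M07Rik at chr3:121280027-121364922 and had 11 regions in 84.9 kb. The vehicle list held 7 of them and the 10 min list 7, and 2 were called with TGFβ alone. Its widest region, of 1595 bp, was in the vehicle but not in the 10 min list. Only 13.2 kb separated it from a cluster of 7 regions at 4930432M17Rik. That pair together held 18 regions, and 6 other pairs of clusters lay within 100 kb of each other.

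Of the 5 clusters with 9 regions, the one at chr7:80720225-80773327 was intergenic, 33.6 kb from the start of Chd2, which codes for a chromatin remodeller. The vehicle list held 5 of its regions, the 10 min list 6 and neither list 3. A cluster over part of Zmiz1, a transcriptional co-regulator of the PIAS-like family (chr14:26271201-26325187), had 4 regions in the vehicle list and 6 in the 10 min list. The widest gap between these lists among the 6 largest clusters was at the TNF receptor genes Tnfrsf1b and Tnfrsf8 (chr4:144819695-144876951), with 3 regions in the vehicle list, 8 in the 10 min list and 1 in neither. The cluster of Igfbp7, which codes for a secreted binding protein of insulin-like growth factors, lay wholly inside the gene, in introns (chr5:77783605-77816602). It was the most compact of the 6 at 33.0 kb, with 3 regions in the vehicle list, 5 in the 10 min list and 4 in neither, and 6 of its 9 regions held a SMAD word. The cluster over Card10, Cdc42ep1 and Lgals2 (chr15:78627051-78682486) had 5 regions in the vehicle list and 7 in the 10 min list, and none of its regions held a SMAD word.

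**Figure D4:**
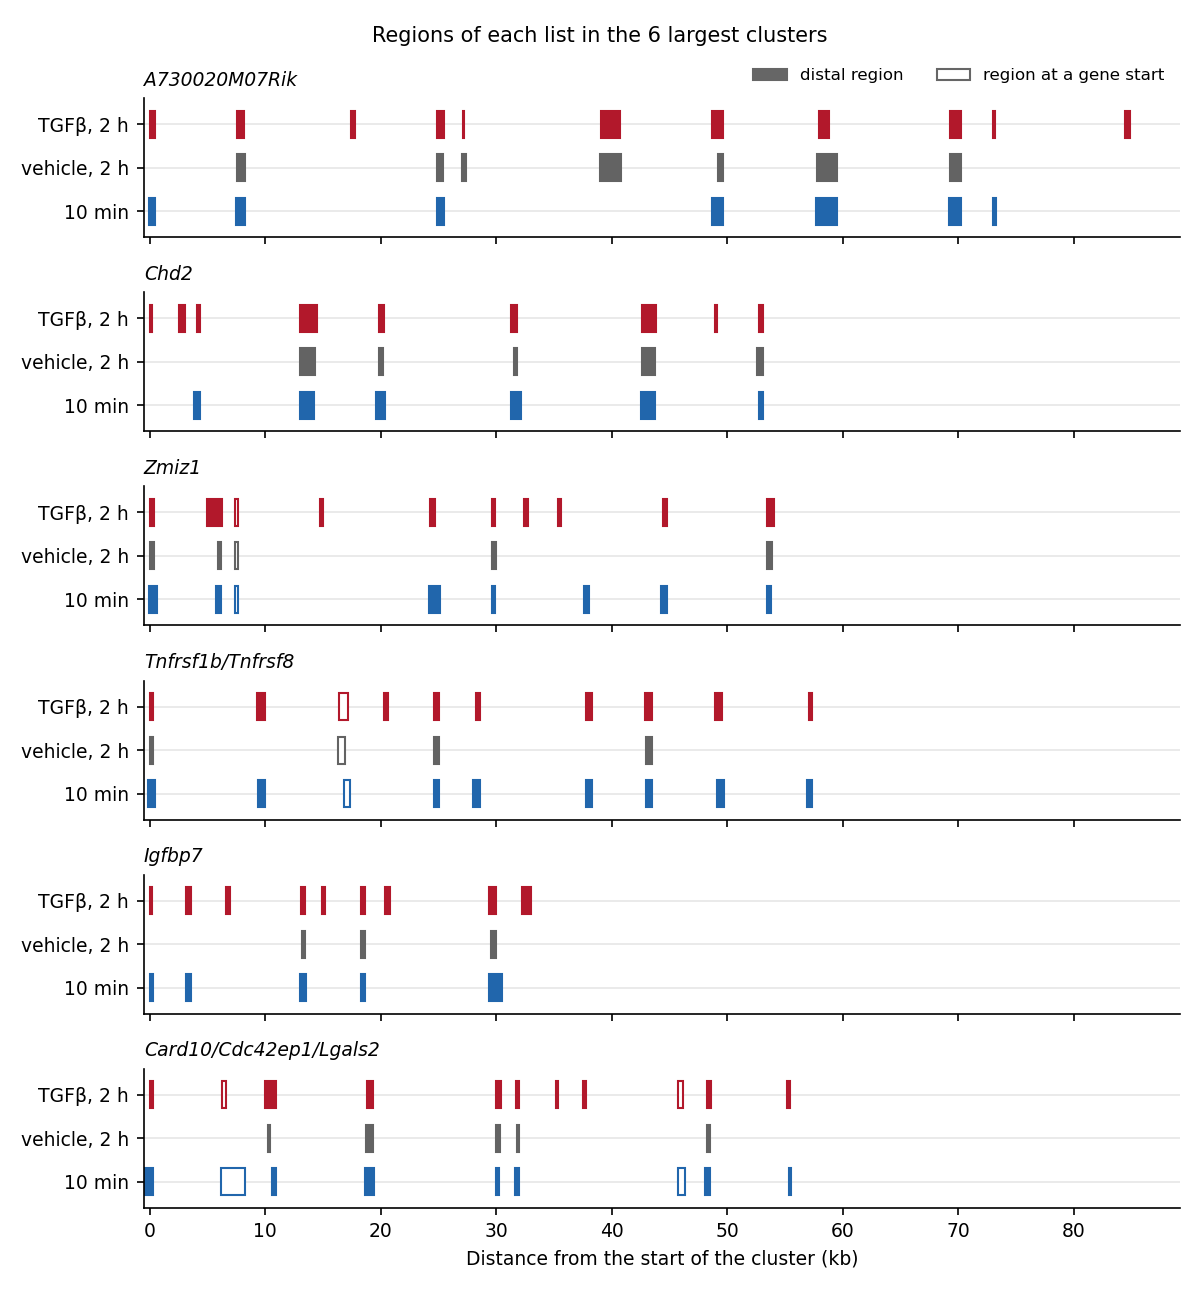
Regions of the TGFβ (red), vehicle (grey) and 10 min (blue) lists along the 6 clusters with the most TGFβ-list regions, by distance in kb from the start of each cluster. Filled boxes are distal regions and empty boxes regions at a gene start, and every cluster shows TGFβ-list regions with and without a counterpart in the vehicle list.

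For these 6 clusters the central 120 bp of the region with the highest score are printed. The window is the middle of the merged region and not a peak summit. Several regions of a cluster could share the capped score, and such ties were settled by width. The strand and build are as above.
A730020M07Rik, chr3:121319873-121319992: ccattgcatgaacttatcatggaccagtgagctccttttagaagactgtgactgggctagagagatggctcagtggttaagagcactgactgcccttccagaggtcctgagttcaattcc
Chd2, chr7:80733906-80734025: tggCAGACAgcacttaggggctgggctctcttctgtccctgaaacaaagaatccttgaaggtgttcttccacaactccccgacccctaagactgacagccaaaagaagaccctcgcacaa
Zmiz1, chr14:26324835-26324954: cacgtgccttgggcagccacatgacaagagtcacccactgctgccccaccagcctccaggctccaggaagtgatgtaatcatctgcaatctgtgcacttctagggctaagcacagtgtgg
Tnfrsf1b/Tnfrsf8, chr4:144862873-144862992: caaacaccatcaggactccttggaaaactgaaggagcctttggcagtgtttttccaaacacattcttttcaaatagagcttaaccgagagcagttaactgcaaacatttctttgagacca
Igfbp7, chr5:77816168-77816287: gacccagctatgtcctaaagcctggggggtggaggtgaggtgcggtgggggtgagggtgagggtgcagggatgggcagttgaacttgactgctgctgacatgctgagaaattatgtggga
Card10/Cdc42ep1/Lgals2, chr15:78646026-78646145: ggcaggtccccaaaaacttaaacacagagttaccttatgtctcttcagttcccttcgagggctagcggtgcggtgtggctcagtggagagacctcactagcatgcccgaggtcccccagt
Capitals mark a SMAD word in the Chd2 window. The other 5 windows held none of the AP-1, SMAD, ETS, CTCF, TEAD, RUNX or GRHL words searched, which says only that these letters are not in the 120 bp shown. The Igfbp7 window belonged to a region called in the TGFβ list alone, that of A730020M07Rik was called in the vehicle but not in the 10 min list, and the other 4 were called in all 3 lists.

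Of the 10 clusters with 8 regions, 9 completed the 15 largest, with ties settled by the summed length of the regions. One of them covered Krt18 and ended 2.63 kb from the start of Krt8, the pair of keratins that build the filaments of simple epithelia, with 5 regions in the vehicle list, 6 in the 10 min list and 2 in neither. At Dlgap1, 92.1 kb from Tgif1, which codes for a SMAD co-repressor, every region was in the 10 min list and 6 were in the vehicle list. At Rtn2 and Fosb, an AP-1 subunit gene, 6 regions were in the vehicle list and 7 in the 10 min list. These 3 clusters were largely open in the other lists. At Bhlhe40, which codes for a helix-loop-helix repressor, the vehicle list held 2 of 8 regions, the 10 min list 3 and neither list 5. Another 5 among the 15, at 1810011O10Rik, Lonrf1, Tg and Wisp1, Plxna2 and Gm10384, had 3 to 5 regions in the vehicle list, 5 or 6 in the 10 min list and 2 or 3 in neither. The cluster of 8 regions left outside the 15, between Aldh1a3 and Asb7 at chr7:73721415-73757540, had 3 regions in the vehicle list, 5 in the 10 min list and 3 in neither.

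Among the 16 clusters with no region in the vehicle list the largest held 6 regions. One of them, 16.6 kb from Lif, a cytokine gene, had 5 regions in the TGFβ list alone and 1 in the 10 min list. The one between Syf2 and Runx3, a RUNX factor gene, had the same numbers. At Lrig1, which codes for a membrane protein that restrains epidermal growth factor receptors, all 6 regions were called in the TGFβ list alone. The span at Lrig1 was not closed in the other lists, since 1 distal vehicle region and 3 distal regions of the 10 min list lay within it without overlapping these 6. At Ptpn3, a tyrosine phosphatase gene, 2 of 6 were in the 10 min list. At Fam129b 5 of 6 were in the 10 min list, so a cluster without vehicle regions could still be mostly open in the 10 min experiment. The other cluster with none of its regions in either list lay 137.2 kb from Thbs1, which codes for thrombospondin-1, a matrix protein able to activate latent TGFβ. Its 5 regions were 181 to 507 bp wide, none at the score cap, and no distal region of either list lay within its span.

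At the opposite end, 2 clusters had every region in the vehicle list. One with 6 regions lay between Plekhg6 and the tetraspanin gene Cd9, with 5 regions in the 10 min list and 4 at the score cap. The other, with 5 regions, lay 4.60 kb from Gprc5a, an orphan receptor gene, with 4 regions in the 10 min list.

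Of the 230 clusters, 127 (55.2%) overlapped the body of a protein-coding gene and 67 lay wholly inside 1 gene. A TSS window was spanned by 82 clusters, since regions at gene starts were set aside without ending a cluster. In 39 clusters no gene body was overlapped and the nearest protein-coding start lay beyond 50 kb. Counting overlapped genes and the nearest protein-coding start on each side, 444 of 22380 protein-coding genes (1.98%) were neighbours of a cluster. Neighbours more often had a region at their own start. In the TGFβ list 66.7% of them had one against 47.6% of all protein-coding genes, in the vehicle list 56.1% against 40.9% and in the 10 min list 64.9% against 46.2%. A start called with TGFβ and not with vehicle was seen for 11.9% (9.24 to 15.3) of neighbours and 7.23% of all genes. Neighbours also had more starts called with TGFβ at all, so these shares are not per called start. Among genes with a start called with TGFβ the numbers were 53 of 296 neighbours and 1619 of all 10643.

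Genes of 10 lists on TGFβ signalling, EMT and epithelial function were looked up among the neighbours. Of their 149 genes 31 (20.8%, 15.1 to 28.0) were neighbours, against 1.98% of all protein-coding genes and 2.78% of those with a TSS region in the TGFβ list. The lists were drawn up for this tissue and treatment with earlier results of these data known, so this share is a description and no test was made.

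Integrins, the receptors that anchor cells to matrix, had the highest share, with 6 of 10 genes. Their 6 clusters held 31 regions, of which 8 (25.8%) were in the vehicle list, 12 (38.7%) in the 10 min list and 17 (54.8%) in neither. These shares were 43.2%, 59.7% and 35.8% over all clustered regions, and 35.4%, 48.3% and 46.2% over all distal regions. With 31 regions from 6 clusters of 1 list, the difference was not tested. The same backgrounds apply to the gene lists that follow. Inside Itgb5 (chr16:33869985-33889445) no region was in the vehicle list, 2 were in the 10 min list and 3 in neither, and 4 of 5 held a SMAD word. A start of Itgb5 was called in the TGFβ and 10 min lists and not in the vehicle list, and the same was true of Itga2. The cluster that overlapped Itga2 had 6 regions, 3 in the vehicle list, 1 in the 10 min list and 3 in neither. The clusters 9.53 kb from Itga3 and 126.3 kb from Itgb8 had no region in the vehicle list, and 2 and 1 of 5 in the 10 min list. That near Itga3 lay even closer to Dlx3, a homeobox gene, at 1.29 kb, and that near Itgb8 closer to Macc1, so the position names neighbours and not targets. Inside Itgb6 and Itga6 the vehicle list held 3 and 2 of 5 regions.

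For the TGFβ pathway, 5 of 22 genes were neighbours, and their clusters had 12 of 29 regions (41.4%) in the vehicle list. That list held 43.2% of all clustered regions and 35.4% of all distal regions. The cluster 69.7 kb from Smad7, the inhibitory SMAD, overlapped Ctif and had 1 of 5 regions in the vehicle list and the same number in the 10 min list, with 4 called in the TGFβ list alone. Within Smad3, a receptor-activated SMAD gene, 1 of 5 was in the vehicle list and 4 were in the 10 min list. Inside Pmepa1, a feedback inhibitor gene, the numbers were 1 and 3 of 5. At a distance of 171.7 kb from Tgfbr2, the type II receptor gene, both lists held 3 of 6. These clusters thus ran from mostly not called to all called in the 10 min list, with the Tgif1 neighbour described above at the called end.

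Among EMT transcription factors 3 of 10 were neighbours: Zeb2, Sox4 and Ets1, with 2, 1 and 3 of 5 regions in the vehicle list. The Sox4 cluster lay 191.8 kb from the nearer annotated start of that gene, and the Zeb2 cluster 132.9 kb from Zeb2 and 24.1 kb from Gtdc1. Of 18 genes for matrix and plasminogen proteins 4 were neighbours, with 4 of 15 regions (26.7%) of their 3 clusters in the vehicle list. That list held 43.2% of all clustered regions and 35.4% of all distal regions. Col4a1 and Col4a2, which share a promoter region and code for basement membrane collagen, shared 1 cluster with 2 of 5 regions in the vehicle and 4 in the 10 min list, and Lama5, a laminin chain gene, had 2 and 3 of 5. For contractile and mesenchymal genes 3 of 20 were neighbours (Tpm1, Lmo7 and S100a4), with 9 of 18 regions in the vehicle list. Of these, Tpm1, a tropomyosin gene, had 4 of 6 in the vehicle and in the 10 min list.

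Growth factor and MAPK genes gave 4 neighbours of 17, with 7 of 22 regions (31.8%) in the vehicle list and 12 (54.5%) in neither. These shares were 43.2% and 35.8% over all clustered regions, and 35.4% and 46.2% over all distal regions. Hbegf, a ligand of the epidermal growth factor receptor, had 1 of 6 regions in the vehicle list and 3 in the 10 min list. In the cluster 94.9 kb from Dusp5, an ERK phosphatase gene, and 13.6 kb from Smndc1, both lists held 3 of 6. In that 122.2 kb from Spred1, an inhibitor of RAS signalling, and 84.5 kb from Tmco5, both held 1 of 5. At 119.2 kb from Myc the vehicle list held 2 and the 10 min list 3 of 5. Claudins Cldn3 and Cldn4, sealing proteins of tight junctions, shared 1 cluster with 1 of 5 regions in the vehicle list and 3 in the 10 min list, and were the only neighbours among 18 junction genes. A start of Cldn4 was called in the TGFβ list and in neither other list. The YAP and TEAD targets Cyr61 and Amotl2 were neighbours among 9, with 1 and 2 of 5 regions in the vehicle list. Of 14 mammary epithelial factors only Klf4, 175.4 kb from its cluster, was a neighbour, with 1 of 5 in the vehicle and 4 in the 10 min list, and Fosb was the only one of 11 AP-1 genes.

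**Figure D5:**
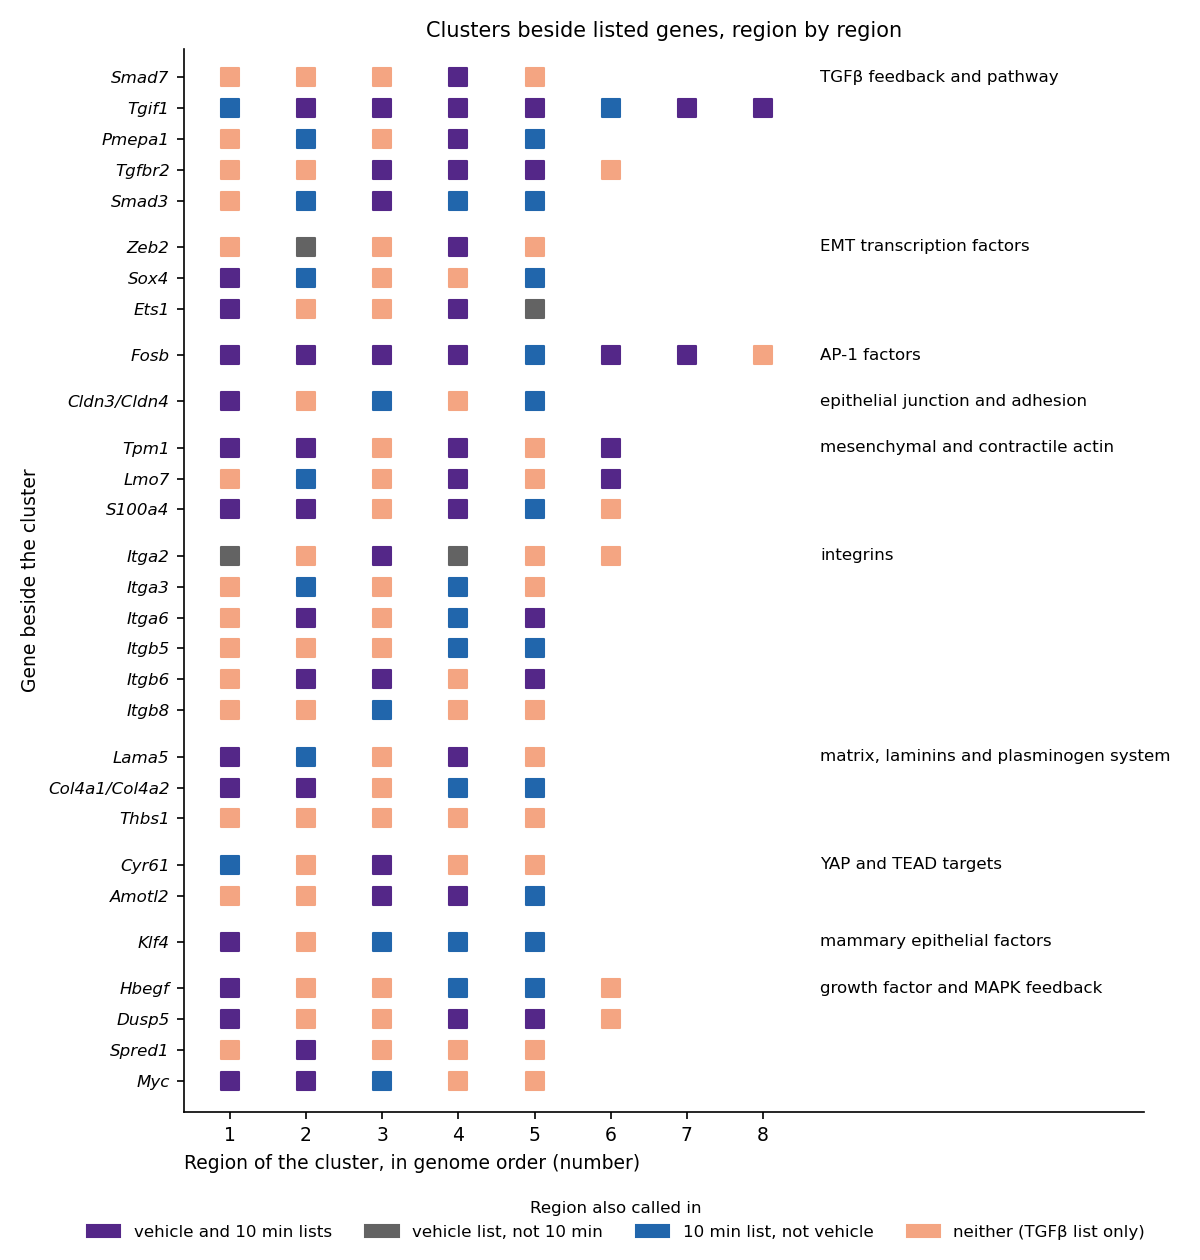
Each row is the cluster beside a listed gene and each square 1 of its regions in genome order, coloured by whether the region was also called in the vehicle and 10 min lists (purple), the vehicle list only (grey), the 10 min list only (blue) or neither (orange). Squares for neither list made up 17 of 31 in the integrin rows and 10 of 29 in the TGFβ pathway rows, and all 5 in the Thbs1 row. Over all clustered regions the share in neither list was 35.8%.

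Within 200 bp of the centre, most words searched were about as frequent in clustered as in other distal regions. Over the whole region, AP-1 was found in 49.6% (46.9 to 52.3) of clustered and 44.5% (43.9 to 45.1) of other regions. For SMAD the shares were 45.0% (42.3 to 47.7) and 39.2% (38.6 to 39.8). RUNX and CTCF went the other way, with 15.8% against 16.2% and 3.45% against 4.46%. Clustered regions were wider, at a median of 375 against 327 bp, and how width bears on this was not tested. An AP-1 match within 200 bp of the centre was found in 43.0% (40.3 to 45.7) of clustered and 41.1% of other regions, a SMAD match in 42.0% (39.4 to 44.7) and 40.1%, and a match to the TEAD word GGAATG in 28.4% and 28.8%. The RUNX word TGTGGTT was found in 13.5% (11.7 to 15.4) and 15.4%, the ETS word ACCGGAAGT with at most 1 mismatch in 5.67% and 5.90%, and the grainyhead word AACCGGTT in 0.306% and 0.126%. The CTCF motif was found in 2.91% (2.13 to 3.97) of clustered and 4.11% (3.88 to 4.36) of other regions. Both strands were searched. A region counted once for each motif, however many matches it held and also where words of different motifs overlapped. At least 1 region held an AP-1 match in 224 clusters and a SMAD match in 221. At the region shares above, most groups of several regions would hold at least 1 match, so these counts add little to those shares. Whether the counts were higher than these shares alone would give was not tested. Median GC content was 49.4% in clusters and 46.6% outside, with quartiles of 44.9% and 53.1% in clusters and 42.4% and 50.9% outside. Introns held 41.3% of clustered and 43.0% of other regions, intergenic sequence 55.6% and 51.7%, and coding exons 1.23% (0.755 to 1.98) and 3.20% (3.0 to 3.42).

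Within clusters, regions called and not called in the vehicle list differed in some of these words. The RUNX word was in 17.6% (14.6 to 20.9) of clustered regions called in the vehicle list and in 10.4% (8.38 to 12.8) of those not called, while outside clusters the shares were 17.1% and 14.5%. The SMAD word was in 38.8% (34.9 to 42.9) of those called and 44.5% (40.9 to 48.1) of those not called, with overlapping intervals, and outside in 37.0% and 41.8%. For AP-1 the shares were 43.3% and 42.7% in clusters and 44.9% and 39.1% outside. Width moved with these classes as well. Clustered regions called in both other lists had a median width of 499.5 bp, and those called in neither 282 bp.

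Clusters lay on all 20 chromosomes of the lists. Their density ran from 1.20 per 100 Mb on the X chromosome to 19.6 on chromosome 19, and chromosome 2 had the most, 25. The vehicle share of clustered regions was above that of the other distal regions on 17 of 20 chromosomes, and the 10 min share on 18. Chromosomes of the same lists are not replicates, and some held few clustered regions, such as 10 on the X chromosome.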

How the data were processed

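ATAC-seq had been performed in 4 samples of NMuMG cells, 1 per group. According to the methods of the study, the authors processed the reads with the ENCODE ATAC-seq pipeline, aligned them to mm9, called peaks with MACS2 2.1.2 and kept those that passed the IDR between replicates. The score in the deposited lists is the scaled IDR, which ran from 540 to its cap of 1000. Which libraries served as replicates, and whether the 10 min list was called from vehicle, TGFβ or both libraries, was not settled. The labels and the design text differ on the sequencer and name more than 1 treatment time, and samples were grouped by their titles. Peak number depends on depth and library quality as well as on accessibility, and the lists hold no counts.

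Here the lists were refined, split at TSS ± 1000 bp of GENCODE vM1 (mm9) and stitched as described in the report, with Python 3.11.15 and numpy 2.4.6. The study itself used another gene catalogue for its TSS. All intervals lay inside the mm9 chromosomes. An overlap of at least 1 bp counted as called in another list. Wilson intervals (95%) came from scipy 1.17.1. The interval steps were tested on simulated lists. The clusters, gene lists and alternatives were chosen with earlier results of these data known. Clusters were named as the 15 with the most regions, the 5 largest with none in the vehicle list, the 2 with all in it and up to 4 per gene list, and those of Itga6, Itgb8 and Smad3 were added after their values were seen. Alternatives covered stitching, merging, TSS, width, score, overlap and motif window settings.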

Additional observations from a re-analysis of the deposited data

How the results depend on the processing

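Each condition had 1 list without counts, so every value describes these lists, and variation between cultures could not be assessed. Sequencing totals were not used as data. No paired analysis was possible because the lists carry no replicates. The number of clusters depended on nearly every setting. It was 6 with a stitching gap of 5 kb and 636 with 20 kb, 16 with 8 or more regions per cluster, 43 with intervals under 300 bp dropped, 431 with only touching intervals merged, 26 with peaks at or above the median score of each list and 21 with the TGFβ list cut to the length of the vehicle list. It stayed within 1.5 times of 230 in the other 3 settings (167 to 262). At equal length of all 3 lists the TGFβ list had 21 clusters, the 10 min list 23 and the vehicle list 18. The share of clustered regions in the vehicle list was 51.5% in clusters of 8 or more regions, 49.4% with intervals under 300 bp dropped, 34.1% at or above the median score, 63.6% with the TGFβ list cut, 38.3% when the centre had to lie inside a vehicle region and 30.0% with both lists at the score cap. In the same order up to the centre rule, the 10 min share was 69.9%, 69.1%, 46.4%, 77.3% and 56.1%, and the share in neither list 27.9%, 29.2%, 49.3%, 20% and 39.7%. With 5 kb the 10 min share was 73.3% and that in neither list 26.7%, over 30 regions, and with 20 kb the 10 min share was 56.1%. Clustered regions had the higher share in the vehicle list in 13 of 14 settings and in the 10 min list in 13 of 13. The exception was the TGFβ list cut by score (63.6% against 65.0% outside), which also gave the only higher share in neither list (20% against 18.3%). With the lower-scoring peaks of each list dropped at its median the vehicle shares were 34.1% (26.7 to 42.3) in clusters and 32.7% outside. At the score cap they were 30.0% (18.1 to 45.4, over 40 regions) and 29.3%. With the TGFβ list cut, the 10 min shares were 77.3% (68.6 to 84.1) and 74.7%. Each of these intervals covers the share outside. The settings counted include the reported one and re-cut the same lists, so their tally is not a set of repeats. The cause of these shifts was not tested. The motif shares of clustered regions followed the window searched, from 34.1% within 100 bp of the centre to 49.6% over the whole region for AP-1 and from 26.0% to 45.0% for SMAD. Outside clusters the shares in these windows were 32.2% and 44.5% for AP-1 and 24.5% and 39.2% for SMAD.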

Other observations

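The vehicle and 10 min lists also formed dense clusters of their own. Of the 18 in the vehicle list, 16 overlapped a cluster of the TGFβ list, and of the 68 in the 10 min list, 47 did. In the other direction 16 (6.96%) and 46 (20%) of the 230 TGFβ clusters were overlapped. The vehicle clusters without a TGFβ counterpart lay at Nfatc2, which codes for a calcium-regulated transcription factor, and between Idh2 and Sema4b, each with 5 regions, of which 4 and 3 were also called in the TGFβ list. The largest such cluster of the 10 min list was at Myh9, the gene of a non-muscle myosin heavy chain, with 7 regions, 6 of them called in the TGFβ list. One between Haao and Zfp36l2 had 5 regions, 1 of them in the TGFβ list and none in the vehicle list. These clusters were picked after their values were seen.

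Few regions of the other lists inside the 230 spans were missing from the TGFβ list. Of 577 distal vehicle regions in the spans, 11 (1.91%, 1.07 to 3.38) had no TGFβ counterpart, against 9.54% of all distal vehicle regions. Of 806 distal regions of the 10 min list, 29 (3.60%, 2.52 to 5.12) had none, against 19.4% of all. The spans were chosen where the TGFβ list is dense, so part of this is set by the selection.

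In all, 14 genes were neighbours of more than 1 cluster, by overlap or by the nearest start. They include Cdkn2b, which codes for a cyclin-dependent kinase inhibitor, with clusters of 5 and 7 regions separated by 15.2 kb. The one of 7 regions lay 211.5 kb from the start of Cdkn2b and 148.9 kb from that of Dmrta1. Bcar3 held clusters of 5 and 6 regions inside the gene, separated by 16.3 kb. Gadd45a, a stress-response gene, had 5 regions in each of a pair separated by 34.1 kb. Over these pairs the vehicle list held 5 of 12, 4 of 11 and 6 of 10 regions and the 10 min list 7, 7 and 6.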
